A study of Mus musculus with 2 samples.

Results

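Processed pseudogenes that held reads in aged mouse hippocampus are described here. A gene was a member when each of its annotated transcripts had the type processed pseudogene and when its expected count, averaged over both libraries, was at least 100. This rule chose 207 of 9940 annotated processed pseudogenes and of 55536 annotated genes. The expected count, which estimates how many reads a gene gave, was therefore used to choose the members, and their levels are given as a description. The 3 members just inside the minimum were Gm8430 at a mean count of 103.28, Gm13835 at 103.015 and Gm2981 at 102.915, and the 3 processed pseudogenes just outside were Gm5578 at 99.89, Gm10108 at 99.38 and Gm6563 at 98.815. Of all processed pseudogenes, 2539 (25.5%) held any count in either library and 7401 were at 0 in both.

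A processed pseudogene is a DNA copy of a messenger RNA, made by reverse transcription and put back into the genome at another place. It lacks the introns of the gene it came from, its parent, and usually the promoter as well. Highly transcribed housekeeping genes, such as those for ribosomal proteins and glycolytic enzymes, have left many such copies in mammalian genomes. A read from the messenger RNA of a parent can match a recent copy base for base, so that a program has to divide such reads among the parent and its copies.

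The libraries hold total RNA from the hippocampus, the brain structure of spatial and episodic memory. The mice were females of B6CASTF1/J, a hybrid strain with 1 parent of C57BL/6J and 1 of CAST/EiJ, aged 18 to 20 months, and none is described as treated. There is 1 group with 2 libraries, labelled biological replicates 1 and 2, each from 300 ng of RNA with ribosomal RNA reduced and ERCC spike-in RNAs added, and both libraries name the same donor. There is no contrast between groups, so no p-value was computed, and a difference between the libraries describes those libraries alone. Counts assigned to genes summed to 35358099 in replicate 1 and 36307276 in replicate 2, and 25 of 27 markers of hippocampal and neighbouring cell types reached a TPM of at least 1 in both. Values come from a pair of deposited layouts for each library. The RSEM-layout gene tables rest on a transcriptome alignment, and the kallisto-layout transcript tables were made from the reads with an index. A count below is an RSEM-layout expected count unless the kallisto layout is named, and TPM is an abundance per effective length that sums to the same total in every library.

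Stretches of 100 coding bases show how close the members are to their parents. Rps23-ps1 (chr3:37714740-37714839 in mm10, plus strand) has the first 100 coding bases of Rps23, which encodes a protein of the small ribosomal subunit on chromosome 13, with 0 mismatches, so 1 line shows both. Gm6361 (chr15:31446718-31446817, minus strand) and Gm6565 (chr6:100604683-100604782, plus strand) share with each other and with Ube2v2 on chromosome 16, which encodes a ubiquitin-conjugating enzyme variant, the same 100 bases. These 3 members are shown because no base distinguishes them here. Every sequence is written 5′ to 3′ from GENCODE M21 transcripts.
Rps23-ps1 and Rps23: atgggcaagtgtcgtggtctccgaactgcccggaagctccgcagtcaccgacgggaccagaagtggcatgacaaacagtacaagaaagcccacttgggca
Gm6361, Gm6565 and Ube2v2: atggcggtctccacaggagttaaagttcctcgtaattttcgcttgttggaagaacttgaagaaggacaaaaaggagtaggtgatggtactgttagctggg

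Other members carry substitutions, and the 100-base coding window with the most mismatches is shown for 3 of them, with the mismatched bases in capitals. Rps2-ps13 (chrX:52898588-52898687, plus strand) had 2 mismatches to Rps2, a gene of the small ribosomal subunit on chromosome 17. Rps15-ps2 (chr6:58017640-58017739, plus strand) had 6 to Rps15, another small-subunit gene, on chromosome 10. Gm6548 (chr17:78850909-78851008, minus strand) had 9 to Eef1a1, the gene of translation elongation factor 1 alpha on chromosome 9. These are shown because the layouts treated the 3 members differently, as described further on.
Rps2-ps13: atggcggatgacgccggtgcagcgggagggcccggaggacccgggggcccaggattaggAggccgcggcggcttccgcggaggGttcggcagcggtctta
Rps2: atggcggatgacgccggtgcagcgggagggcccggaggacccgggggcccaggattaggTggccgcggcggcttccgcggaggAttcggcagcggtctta
Rps15-ps2: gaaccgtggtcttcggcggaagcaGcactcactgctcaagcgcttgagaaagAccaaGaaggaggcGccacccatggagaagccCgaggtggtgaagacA
Rps15: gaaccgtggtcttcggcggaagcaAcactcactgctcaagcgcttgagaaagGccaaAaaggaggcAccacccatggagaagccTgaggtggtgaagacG
Gm6548: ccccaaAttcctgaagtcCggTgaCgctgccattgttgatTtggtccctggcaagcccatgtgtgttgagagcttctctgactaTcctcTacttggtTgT
Eef1a1: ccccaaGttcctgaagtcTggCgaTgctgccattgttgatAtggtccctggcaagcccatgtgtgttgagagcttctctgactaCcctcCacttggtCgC

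Over the whole transcript, members resembled a protein-coding transcript more closely than processed pseudogenes in general. The median identity with the closest protein-coding transcript was 99.5% over the 207 members and 89.9% over all processed pseudogenes with such a match. Identity was 100% for 43 members, 39 of them over their whole length, at least 99% for 140, and under 95% for 7. The members lay on 20 chromosomes and had 166 different closest genes, and 13 members (6.28%) lay on chromosome X, against 9.31% of all processed pseudogenes. As a second measure each transcript was read in overlapping words, and a word counted as distinguishing when no transcript of any other annotated gene held it in the sense direction. No distinguishing word of 31 bases existed in 55 members (26.6%), against 378 of all 9940 processed pseudogenes (3.80%). With words of 100 bases 51 members had none, 3 had only distinguishing words, and the median member had 29.8% distinguishing, against 100% for the median processed pseudogene. Sequence was not used by the rule, but reads of a parent can raise the count of a close copy, so the likeness to a parent and the count that chose the members are not independent.

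The position of the members relative to other genes was near that of processed pseudogenes in general. In the same direction, 27 members (13.0%) lay within another gene, 25 of these in an intron, against 10.6% of all processed pseudogenes. On the opposite strand 37 members (17.9%) had a gene, against 18.2%. These numbers count only genes of listed types, such as protein-coding, antisense and long intergenic RNA genes. Small RNA genes and most other pseudogene types were not counted. No gene of the listed types overlapped 143 members on either strand. Gm13509 lay in an intron of Mbd5 and Morf4l1-ps1 in an intron of Lpp. The strand setting is not given in the sources used here. Whether a member and a gene opposite it shared reads was not tested. The kallisto-layout level was over 2-fold below the RSEM-layout level for 23 of the 37 members opposite a gene and for 104 of the other 170.

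Members took 0.317% of gene-assigned counts in replicate 1 (exact Clopper-Pearson 95% interval 0.315 to 0.319) and 0.318% in replicate 2 (0.316 to 0.320). These intervals cover counting error only. In the kallisto layout the same members took 0.190% and 0.194%. Per effective length the share was larger, at 0.833% and 0.815% of TPM. The members held 87.0% of all counts of processed pseudogenes. Their counts were uneven, with 10.4% in the leading member, 41.5% in the leading 15 and 67.3% in the leading 50, and 23 members had a mean count of at least 1000.

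Gm15459, a copy of Hspa8 on chromosome 5 (5781615 to 5783555), led the members with a count of 12108 in replicate 1 and 11548 in replicate 2. Hspa8 encodes the constitutive heat shock cognate protein that helps other proteins to fold, and its own counts were 43671 and 41073. The kallisto layout gave Gm15459 11061 and 10617, so libraries and layouts were close. Gm15459 matched Hspa8 at 99.7% over 1941 bases and 326 of its 100-base words were distinguishing. A second copy, Gm8355 on chromosome 10, had counts of 701 and 710 and kallisto-layout counts of 2066 and 1988, 2.84-fold higher as a share of gene-assigned counts. The coding gene with all 18 of its processed pseudogenes summed to 56520 and 53367 in the RSEM layout and to 58802 and 55108 in the kallisto layout.

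Among the listed gene classes, copies of ribosomal protein genes were the most frequent. Of the 207 members 65 (31.4%) had a ribosomal protein gene as the closest coding gene, against 22.1% of all processed pseudogenes, and they held 36.5% of the members' counts. Rpl3-ps1 on chromosome X copies Rpl3, a gene of the large subunit, and had counts of 4549 and 4601 with kallisto-layout counts of 4239 and 4449. Rps2-ps13, also on X, had 3785 and 3752 with 2787 and 2829. For Rps23-ps1 the counts were 2909 and 3184, whereas the kallisto layout listed it at 0 in both libraries. Rps23-ps1 was thus the only one of these 3 copies without a kallisto-layout count. Over the 65 members the kallisto-layout level had a median of 4.77% of the RSEM-layout level. Of these 45 were over 2-fold lower, 1 was over 2-fold higher and 25 were under 1 count in both kallisto-layout libraries. Over all 207 members the median was 32.4%, with 127 (61.4%) lower, 4 higher and 60 under 1 count. Of all genes tested 2.16% were lower. Gm7536 copies Rpl27a at 100% identity and had counts of 1701 and 1735 with 595 and 615 in the kallisto layout. Rps3a2 copies Rps3a1 and had 1620.5 and 1748 with 614 and 711. The protein-coding ribosomal protein genes served as the other genes of the pathway. Of 95 past the minimum, none was over 2-fold apart between libraries, 6 were over 2-fold lower and 4 over 2-fold higher in the kallisto layout, and the median level was 105%. The 4 higher genes were Rpl10, Rpl21, Rps23 and Rpl27, and copies of the latter 3 were among the members. The 6 lower genes were Rplp1, Rpl19, Rps29, Rps21, Rps27rt and Rpl36, and copies of Rpl19, Rps29 and Rpl36 were among the members as well. In all, the 65 members had 42 different closest genes, so a copy among the members was common in this class.

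Copies of other housekeeping genes formed smaller classes. The 7 copies of cytoskeletal genes held 7.18% of the members' counts. Gm14150 and Gm3226 both copy the alpha-tubulin gene Tuba1b. Gm14150 had counts of 3123 and 3270 and kallisto-layout counts of 46.4 and 57.6. Gm3226 had 2075 and 2166 and, in the kallisto layout, 2042 and 2107. Thus 1 copy of Tuba1b was nearly lost in the kallisto layout and the other had almost the same count. The 8 copies of genes of the mitochondrial respiratory chain and ATP synthase were over 2-fold lower in the kallisto layout in 7 cases, 6 of them under 1 count. Ndufb4c, a copy of the complex I subunit gene Ndufb4, had counts of 767 and 711 above the 451 and 440 of Ndufb4, and was listed at 0 in the kallisto layout. Among 8 copies of translation factor genes the median level was 87.7% and 3 were over 2-fold lower. Gm10123, a copy of the peptidyl-prolyl isomerase gene Ppia at 100% identity, had counts of 3140 and 3187 and was listed at 0 in both kallisto-layout libraries. Ferritin genes had no copy among the members, and 1 member, Gm4202, copied a gene of the 14-3-3 and calmodulin class, Ywhaz. The kallisto-layout level was over 2-fold lower for 5 of 7 copies of glycolysis genes, 3 of 6 of chaperone genes and 8 of 10 of RNA-binding genes. The same held for 6 of 8 copies of ubiquitin and proteasome genes and 4 of 5 of chromatin genes. Over all members it held for 127 of 207 (61.4%), and over all genes tested for 2.16%. No class was tested against these shares. The level was over 2-fold higher for 1 glycolysis and 1 chaperone copy, and for 4 of all 207 members. The RNA-binding list also took in Gm10241, a copy of Sumo2, the gene of a ubiquitin-like modifier, which is 1 of the 8 lower copies and was listed at 0 in the kallisto layout. Gm4735 had counts of 2365 and 2408 and kallisto-layout counts of 2051 and 2118. Its closest coding gene was the enolase gene Eno1b, which the glycolysis list did not hold. Gm1840 copies Gpi1, a glycolytic enzyme gene that was also outside the glycolysis list, and had 687 and 647 with 599 and 577. The chromatin list did not hold Morf4l1, a gene of histone-modifying complexes. Its 3 copies stood at 1.65%, 41.0% and 83.9% of the RSEM-layout level. The class counts thus cover copies of listed genes only. Gm13509 copies Ap2m1, an adaptor gene of endocytosis, and had 1881 and 2072 with 1282 and 1472. The class of 82 members outside every list had a median level of 47.7%.

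Libraries matched closely for most members in the RSEM layout. After TMM scaling 151 of the 207 were under 1.2-fold apart and the median was 1.09-fold, against 1.04-fold over all genes past the same minimum. Apart means here that scaled counts differed over 2-fold. Of all 12856 such genes 0.233% were apart, with 0.0933% favouring replicate 1 and 0.140% favouring replicate 2. Among the members 5 (2.42%) were apart, of which 3 favoured replicate 1 and the other 2 replicate 2. Across the members the log2 counts of the libraries had a Pearson coefficient of 0.744 (n = 207), and 0.959 over the 204 that rounded above 0 in both. These coefficients describe genes, which share reads and are not replicates.

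**Figure D1:**
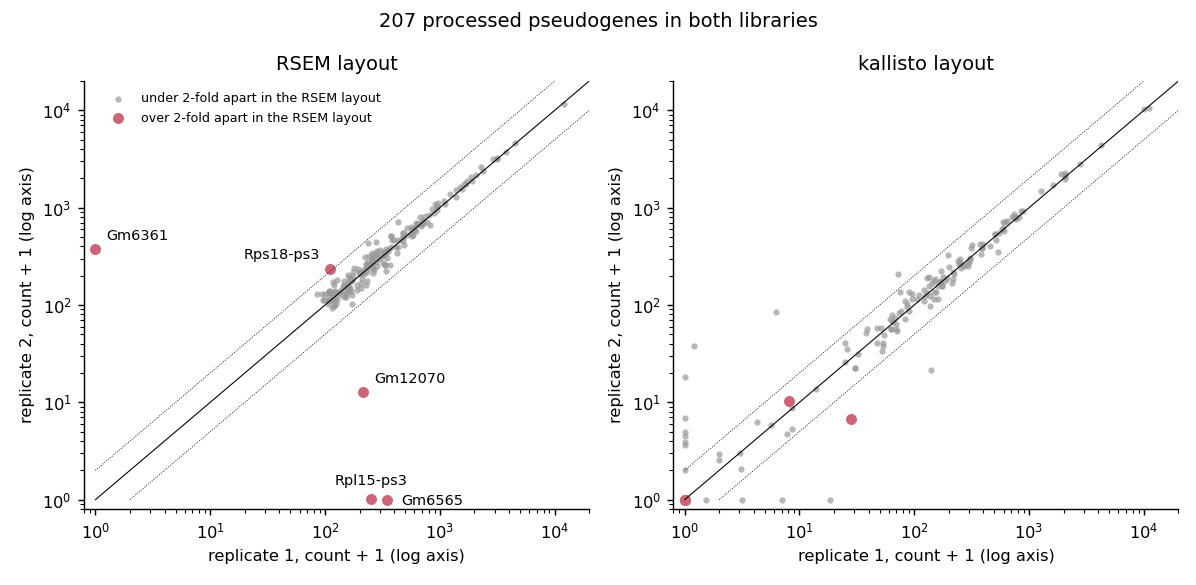
Counts of the 207 members in replicate 1 (horizontal) and replicate 2 (vertical), each plus 1 on log axes, in the RSEM layout (left) and the kallisto layout (right); the solid line marks equal counts and the dotted lines 2-fold. In the left panel 5 named members lie outside the dotted lines, and Gm6361, Gm6565 and Rpl15-ps3 are at or near 0 in 1 library.

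The copies Gm6361 and Gm6565 of Ube2v2 changed places between the libraries. Gm6361 had counts of 0 and 373 in replicates 1 and 2. Against a floor of 3 counts in 1 library, its expected count was at least 121-fold higher in replicate 2. Gm6565 had counts of 343 and 0, and its expected count was at least 117-fold higher in replicate 1. Both bounds cover counting error only, and not how reads were divided among copies. Each library thus gave its counts to a different copy, and the sum of the coding gene with its 6 processed pseudogenes was 1937 and 1995. Neither copy had a distinguishing word of 31 or 100 bases, and both were listed at 0 in the kallisto layout, where Ube2v2 had 2226 and 2238 against 1586 and 1615 in the RSEM layout. The authors' posterior mean count, an average over sampled assignments of the reads, spread the counts over both copies. It was 93.2 and 213.5 for Gm6361 and 237.0 and 153.5 for Gm6565. By this measure Gm6361 stayed over 2-fold apart between libraries and Gm6565 did not.

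Rpl15-ps3 is a copy of the large-subunit gene Rpl15 at 100% identity. It had a count of 249 in replicate 1 and 0.01 in replicate 2, which is 0 once rounded. Against the floor of 3 counts it was at least 84.9-fold higher in replicate 1, a bound that covers counting error only. Its posterior mean counts were 206.2 and 59.7, and it too was listed at 0 in the kallisto layout. Gm12070, a copy of the glycolytic enzyme gene Gapdh at 99.9% identity, had 213 and 11.9, an 18.2-fold difference (exact binomial 95% interval 10.2 to 35.7, which covers counting error only). Its kallisto-layout counts were 27.3 and 5.82. With 2 counts added in each library, its log2 ratio of replicate 2 over replicate 1 was -3.99 in expected counts and -1.54 in posterior mean counts. Rps18-ps3, a copy of the small-subunit gene Rps18, had 111 and 231, 2.03-fold higher in replicate 2 (1.61 to 2.57), and its kallisto-layout counts were 7.04 and 9.37. For all 5 members the deposited posterior standard deviation of the count was at least 37.6 counts in each library. 

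Each member was also summed with its closest coding gene and all processed pseudogenes of that gene. Processed pseudogenes held a median of 12.2% of such a sum in the RSEM layout. For Gm12070 the sum, of Gapdh with its copies, was 18416 and 18685 counts. Most sums could therefore hardly move 2-fold through a member alone. Whether the reads of a member went to its relatives was not tested by them. Over the 166 sums made in this way 0 were over 2-fold apart between libraries, the median was 1.03-fold and the largest 1.35-fold, for Rps12-ps3 and its copies at 1457 and 2020 counts. Rps12-ps3 has a protein-coding transcript but a pseudogene symbol, and Rps12 itself is not part of that sum. With 1 library on each side, these folds have no replicate check.

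Several members had the same sequence and were given the same count. Rpl27-ps3 and Gm11518 both had 595.99 in replicate 1 and 600.41 in replicate 2, with posterior standard deviations of 345 and 289 for Rpl27-ps3. Gm10240 and Gm13370, copies of Rpl21, both had 375.19 and 510.27. Gm10243, Rpl35a-ps2, Rpl35a-ps3, Rpl35a-ps4 and Rpl35a-ps6 each had 157.40 and 148.17. In all, 10 members were identical to a transcript of another gene, so their single counts are uncertain. Over the 207 members the posterior standard deviation had a median of 6.63% of the count, against 0 for protein-coding genes, and it was over 25% in 18 members.

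Layouts differed far more than libraries. A gene counted as apart between layouts when its share of gene-assigned counts, averaged over the libraries, differed over 2-fold. Of 12851 genes tested 2.16% were lower and 0.412% higher in the kallisto layout, and 1.00% had under 1 count in both kallisto-layout libraries. Among the members 127 (61.4%) were lower, 4 were higher, 76 were within 2-fold and 60 had under 1 count in both. The median kallisto-layout level was 32.4% of the RSEM-layout level, against 107% over all genes tested. The RSEM-layout counts chose the members, which favours lower values in the other layout. Chosen on kallisto-layout counts of at least 100 instead, 149 processed pseudogenes were members, of which 17 were lower and 62 higher in the kallisto layout. The sets shared 90 genes, 60.4% of that set and 43.5% of the 207.

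**Figure D2:**
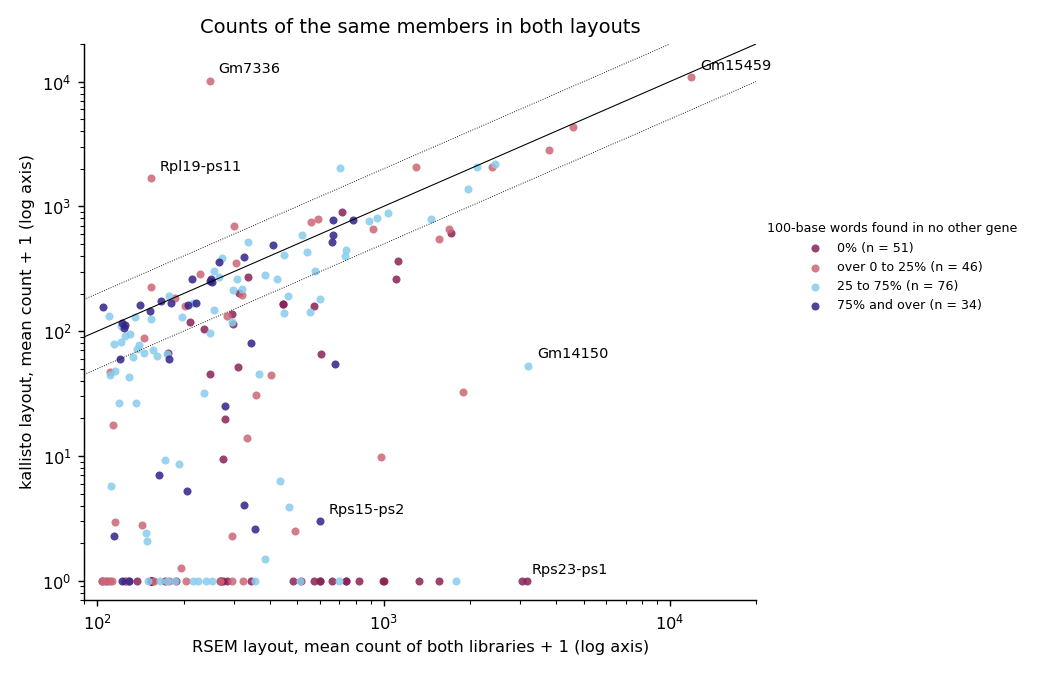
Mean count of both libraries plus 1 for each member in the RSEM layout (horizontal) and the kallisto layout (vertical), on log axes; colours give the share of 100-base words found in no other gene, the solid line marks equal counts and the dotted lines 2-fold. A row of members at the bottom, Rps23-ps1 among them, has no kallisto-layout count, and Gm7336 and Rpl19-ps11 lie far above the line.

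The 5 members with the lowest ratio and the highest counts were Gm10123, Rps23-ps1, Atp6v0c-ps2, Rpl28-ps1 and Rpl31-ps8, all listed at 0 in the kallisto layout. Atp6v0c-ps2 copies a subunit gene of the proton pump of vesicles and lysosomes and had counts of 1710 and 1860. Rpl28-ps1 had 1486 and 1637, and Rpl31-ps8 had 1369 and 1282. Their closest genes were far from 0 there, with 13728 and 14775 kallisto-layout counts for Ppia and 3714 and 3948 for Rpl31. Rps23 itself had 1197 and 1179 counts in the RSEM layout and 4275 and 4507 in the kallisto layout. Summed with all 19 of its processed pseudogenes Rps23 had 4123 and 4381 counts in the RSEM layout and 4284 and 4519 in the kallisto layout. The pseudogenes held 72.1% of that sum in the RSEM layout but 0.244% in the kallisto layout, while the sum itself differed little.

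At the other end Gm7336, a copy of Gapdh on chromosome 7, had counts of 266 and 226 and kallisto-layout counts of 9952 and 10392, 40.9-fold higher as a share. Only 3 of its 100-base words were distinguishing. Gapdh was also higher in the kallisto layout, at 31594 and 31566 against 16963 and 17283, so the sum over Gapdh and its 232 processed pseudogenes was 226% of the RSEM-layout level. Rpl19-ps11 had 126 and 179 and kallisto-layout counts of 1629 and 1713, 10.8-fold higher. Rpl19, the large-subunit gene it copies, was lower there at 1177 and 1192 against 4444 and 4649. Gm6206, a copy of the ubiquitin ligase gene Cop1, had 256 and 344 with 642 and 735, 2.27-fold higher. Gm4202 had 1232 and 1367 with 1906 and 2222, which is within 2-fold.

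Over the 166 sums of a coding gene with all its processed pseudogenes, 5 were over 2-fold apart between layouts, 4 lower and 1 higher in the kallisto layout, and the median was 101%. The 4 lower sums were those of Rps29, Rpl36, Hist2h2aa2 and Rps12-ps3, the last of which leaves out Rps12. Processed pseudogenes held a median of 12.2% of the sum in the RSEM layout and of 3.28% in the kallisto layout (165 sums above 0). In most sums the coding gene thus outweighed its copies, so a sum could seldom move 2-fold through the copies alone. The pair of Rps15-ps2 and Rps15 stood at 57.8% of the RSEM-layout level in the kallisto layout, and the coding gene was itself lower there. Rps15 had 4335 and 4511 counts and 2851 and 3013 in the kallisto layout. The pair therefore cannot show where the counts of Rps15-ps2 went, which was not tested.

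**Figure D3:**
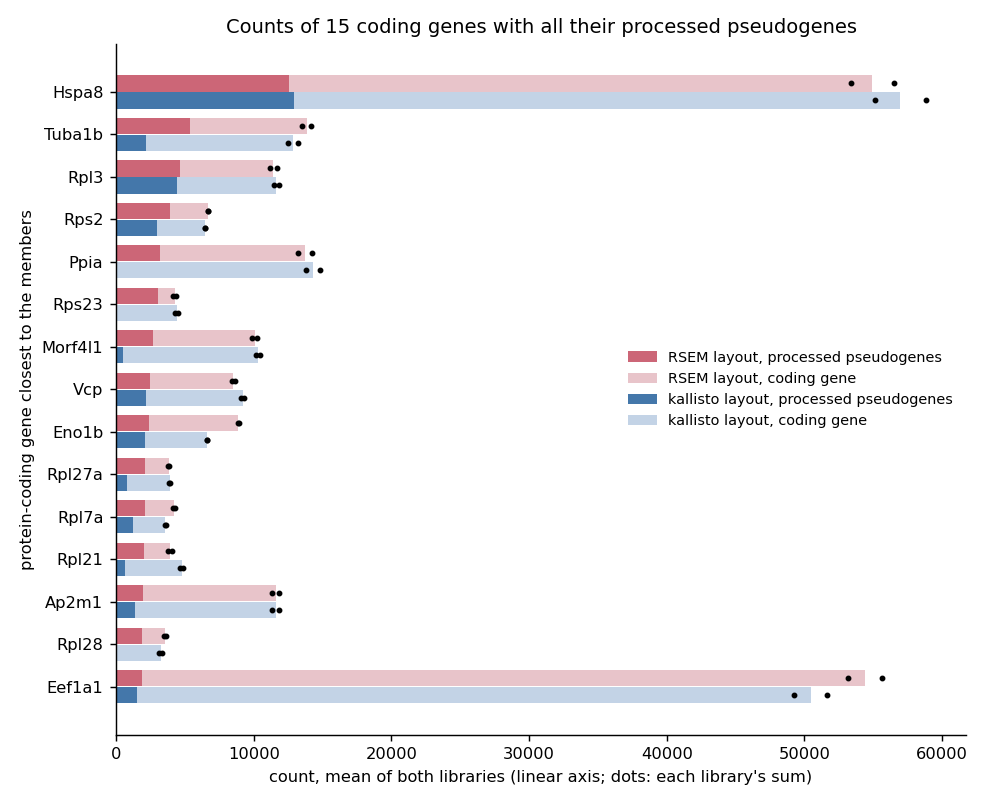
Counts of 15 protein-coding genes and all their processed pseudogenes, as the mean of both libraries, in the RSEM layout (red) and the kallisto layout (blue); dark bars are the pseudogenes, light bars the coding gene, and dots give each library's sum. For Rps23 the dark bar holds 72.1% of the sum in the RSEM layout but 0.244% in the kallisto layout, with sums of similar length.

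Length and distinguishing sequence both moved with the layout level. In 51 members with no distinguishing 100-base word the median kallisto-layout level was 0% of the RSEM-layout level and 32 were under 1 count. It was 12.6% in 46 members with up to 25% distinguishing, 45.5% in 76 with 25 to 75%, and 85.7% in 34 with more. The posterior standard deviation went the other way, from a median of 11.5% of the count in the first of these classes to 2.86% in the last. By length the median level was 0% in 37 members under 400 bases, 2.05% in 73 of 400 to under 700 bases, 59.7% in 37 of 700 to under 1000 bases and 82.3% in 60 of at least 1000 bases. Of those under 400 bases 29 had under 1 kallisto-layout count in both libraries, and of those of at least 1000 bases 1 did. Across the 207 members the Spearman coefficient of the layout ratio was 0.650 with length and 0.433 with the share of distinguishing 100-base words, as a description over genes that share reads.

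**Figure D4:**
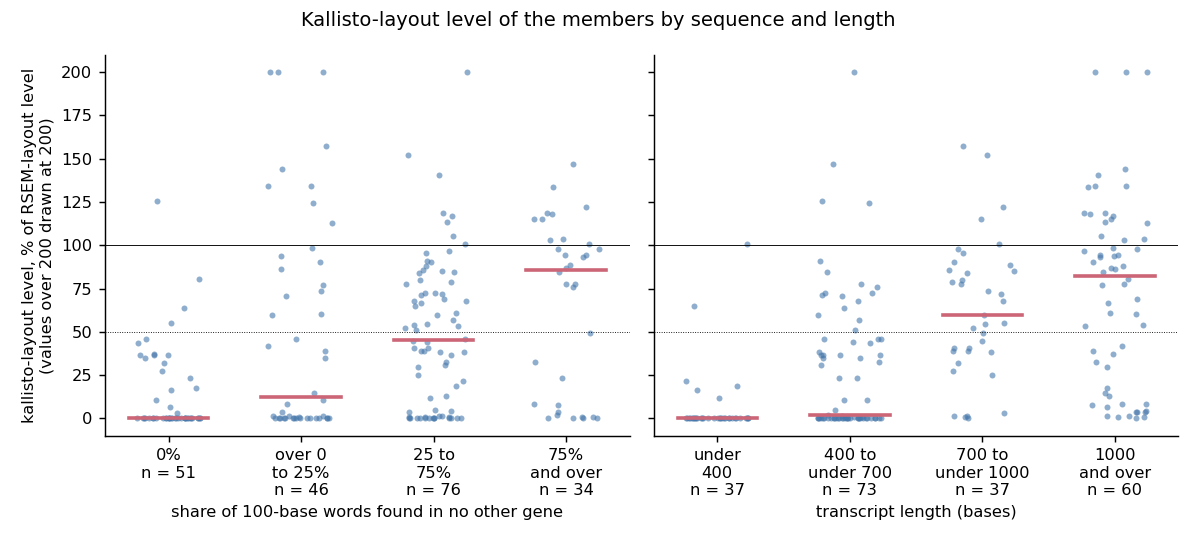
Kallisto-layout level of each member as a percent of its RSEM-layout level, by the share of 100-base words found in no other gene (left) and by transcript length in bases (right); each point is 1 member, red bars are medians and values over 200% are drawn at 200%. The medians go from 0% to 85.7% with distinguishing sequence and from 0% to 82.3% with length.

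Longer members also had more distinguishing words. Under 700 bases the median level was 0% in 42 members without a distinguishing 100-base word and 0% in 23 with up to 25% distinguishing. It was 20.0% in 34 with 25 to 75% and 2.05% in 11 with more. At 700 bases and over the medians of the same classes were 27.4% (n = 9), 77.1% (n = 23), 63.7% (n = 42) and 94.4% (n = 23). Within either length range the medians thus did not go up from each class to the next. The layouts used different effective lengths, the number of positions from which a transcript could give a read or fragment. RSEM-layout effective lengths were the length minus 99 bases for all 207 members. In the kallisto layout the difference was 335 bases in replicate 1 and 333 in replicate 2 for members of at least 700 bases, and smaller for short ones. Rps23-ps1, with 425 bases, thus had an effective length of 326 bases in the RSEM layout and of 123 in replicate 1 and 122 in replicate 2 in the kallisto layout. Whether length, effective length or sequence set the layout level was not tested.

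Some members were distinguishable in nearly all their sequence. Of these, Rps15-ps2 and AC134576.3 differed over 2-fold between layouts, whereas Gm6548 and Gm13050 did not. Rps15-ps2, with 94.99% of its 100-base words distinguishing, had counts of 565 and 632 with posterior standard deviations of 3.37 and 4.05, and kallisto-layout counts of 2.03 in both. Gm6548, in which all 100-base words were distinguishing, had counts of 745 and 813 and kallisto-layout counts of 745 and 798. Gm13050, a copy of the elongation factor gene Eef2 with 99.8% distinguishing, had 637 and 685 with 504 and 531. AC134576.3, a copy of the glutamine synthetase gene Glul with all words distinguishing, had 324 in both libraries and kallisto-layout counts of 6.02 and 0. In total 13 of the 34 members with at least 75% distinguishing words were over 2-fold lower in the kallisto layout. Gm6548, Gm13050 and AC134576.3 were chosen after their values were seen.

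Levels relative to a named parent were taken per effective length. The symbols of 58 members end in -ps or -rs, and for 51 of them a -ps symbol names a protein-coding gene of the table. The TPM of these 51 had a median of 25.02% of the parent's TPM in replicate 1 and 25.995% in replicate 2. The highest was 818% and 659%, for Mrpl23-ps1, which copies a gene of the mitochondrial ribosome. In the kallisto layout the medians were 0.198% and 0.500%, and 23 and 21 of the 51 were listed at 0. More TPM than in the parent was found for 7 and 6 members in the RSEM layout and for 2 and 3 in the kallisto layout.

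Rps2-ps13 stood at 148% and 151% of Rps2 in the RSEM layout and at 93.0% and 102% in the kallisto layout. Rpl3-ps1 stood at 66.2% and 62.7% of Rpl3, and at 43.1% and 41.2% in the kallisto layout. The ratio held within 2-fold between layouts for both. Rps23-ps1 stood at 327% and 380% of Rps23 and was at 0 in the kallisto layout. Rpl36a-ps2, a copy of a large-subunit gene, stood at 177% and 199% of Rpl36a and was at 0 in the kallisto layout too. Rpl17-ps5 went the other way in TPM, from 32.5% and 29.5% of Rpl17 to 112% and 104%. In counts it stayed well below Rpl17 in both layouts, at 710 and 720 against 3241 and 3613 in the RSEM layout. The kallisto-layout counts were 882 and 930 against 3213 and 3565. Its effective length was 456 bases in the RSEM layout and 224 and 225 in the kallisto layout. Rps13-ps1 stood at 80.1% and 81.8% of Rps13 and at 75.2% and 87.3%. Outside the ribosomal proteins, Morf4l1-ps1 stood at 47.7% and 44.8% of Morf4l1, a gene of histone-modifying complexes, and at 0.501% and 0.808% in the kallisto layout. For Tpt1-ps3 the values were 23.1% and 24.1% of Tpt1 and 0 in the kallisto layout.

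**Figure D5:**
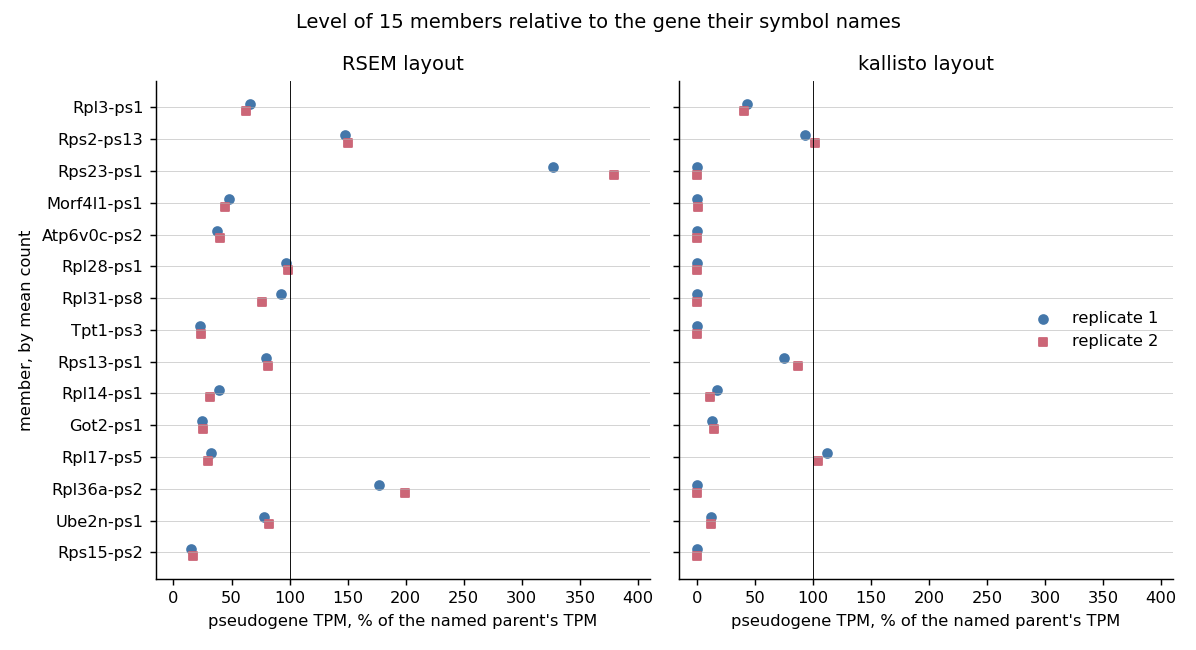
TPM of 15 members with a named parent as a percent of the parent's TPM, in the RSEM layout (left) and the kallisto layout (right); circles are replicate 1, squares replicate 2, and the line marks equal TPM. Rps23-ps1 is at 327% and 380% on the left and at 0 on the right, whereas the replicates lie close together in both panels.

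Vcp-rs, the 1 member with an -rs symbol and a parent in the table, copies Vcp, a gene for an unfolding ATPase. Its counts were 2297 and 2596, its kallisto-layout counts 2063 and 2279, and those of Vcp 6105 and 6053. In counts rather than TPM, 9 members exceeded their closest coding gene in the RSEM layout and 3 did in the kallisto layout. One of them, AC098880.2, resembled its closest gene at 82.4% only, and had counts of 163 and 170 and kallisto-layout counts of 171 and 177.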

How the data were processed

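Total RNA of hippocampus was measured in 2 libraries. Per the deposited notes, GENCODE M21 on mm10 was used. The authors deposited, per the file headers, expected counts, posterior mean counts, TPM and FPKM per gene in RSEM's column layout, and estimated counts and TPM per transcript in kallisto's. The deposited posterior standard deviation of the count is a score of its spread over sampled assignments. TPM credibility bounds, deposited as a signal per gene by the authors, and FPKM were not used for results. Per the deposited notes, the RSEM-layout tables came from a transcriptome alignment and the kallisto-layout tables from a FASTQ file and an index. Which aligner, strand setting and program versions were used is not given in the sources used here.

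Expected counts were rounded for the library comparison. Libraries were scaled with TMM factors in edgeR 4.0.16 (R 4.3.3), with DESeq2 1.42.0 size factors as an alternative. Rows without a gene name took up to 1.64e-05% of counts, and ERCC rows 0.493% and 0.489%; both stayed out of library sizes. Kallisto-layout counts were summed per gene, and 86 genes had no transcript there. Ratios have exact binomial 95% intervals, and a count of 0 was given a floor of 3 counts. Words of 31, 75 and 100 bases and blastn 2.17.0 (word size 16) were run on M21 transcripts, with Python 3.11.15. On simulated libraries of 55536 genes, 100% of 200 genes changed 4-fold were called. The changed genes had mean counts of at least 100 and were drawn without reads shared between genes. This recovery therefore does not describe calls on members that share reads with other genes.

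Named are the 15 members of highest count, members apart between libraries or at 0 in 1, the 5 highest and 5 lowest layout ratios, 15 with a named parent and the neighbours of the minimum; others were named after their values were seen, and not every gene of the rule is printed. The members and lists were chosen with earlier results of these data known. Whether both libraries came from 1 animal is not stated, so the spread between them may be technical. Some items are not reported here.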

Additional observations from a re-analysis of the deposited data

How the results depend on the processing

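The comparison between libraries has 1 library on each side and so no replicate check, and the members were chosen by count. No paired analysis was possible because there is 1 group. A minimum mean count of 200 left 131 members in place of 207; the other alternatives for the number of members gave 149 to 280, and each library alone 202 and 212. The share of gene-assigned counts, 0.317%, was 0.824% in TPM, 0.314% in posterior mean counts and 0.192% in the kallisto layout, and 0.317% to 0.318% in single libraries. The 5 members apart between libraries became 3 with posterior mean counts and 1 among members of at least 100 kallisto-layout counts (Gm15454, at 71.5 and 208 in that layout). They became 10 over 1.5-fold, 11 with a minimum of 50 and 0 with a minimum of 200, under which each of the 5 falls. Of the sums with the closest coding gene and its copies 0 were apart. In most sums, here and between layouts, the coding gene outweighs the member, so a sum can seldom move 2-fold through it. The 131 members apart between layouts became 79 when chosen on kallisto-layout counts and 5 among the sums, and the sums and this choice were made after seeing the data; the others gave 107 to 147, and replicates 1 and 2 alone 130 and 126. The TPM of members with a named parent, at a median of 26.5% of the parent's for the mean of both libraries, was 25.02% to 25.995% in single libraries, 13.5% in counts and 0.25% in the kallisto layout. The 152 members with a distinguishing word of 31 bases were 154 with 75 and 156 with 100. For single members 58 recomputed ratios stayed on their side of 2-fold, 3 fell below it (Gm6565 with posterior mean counts, and Rps18-ps3 with these and in the kallisto layout) and 1 passed it, Gm4202 in TPM, and none changed direction. The causes were not tested. No kallisto-layout ratio is counted here for Gm6361, Gm6565 and Rpl15-ps3, because each was listed at 0 in that layout. By counting error alone the interval of Rps18-ps3, 1.61 to 2.57, spans 2-fold, and the deposited posterior standard deviations of its counts were 37.6 and 42.3.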

Other observations

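Some processed pseudogenes held kallisto-layout counts without being members. Of the 149 chosen on kallisto-layout counts 59 were not among the 207. The highest of these was Gm48368, with RSEM-layout counts of 5 and 0 and kallisto-layout counts of 1124 and 1098, and its closest protein-coding transcript, of Noct, matched at 86.1% only. Gm48132 had 1 and 1 with 1058 and 1043, and Gm48082 had 5 and 6 with 902 and 913. These 3 were chosen after their values were seen.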
